A study of Bos taurus with 15 samples.

Results

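The genes described here are the peroxisome proliferator-activated receptors (PPARs), the CCAAT/enhancer-binding proteins (C/EBPs), and the partner and coactivators that work with them in the fat cell. They were chosen by symbol, with earlier results of these data known. Of the 10 symbols listed (PPARG, PPARA, PPARD, RXRA, CEBPA, CEBPB, CEBPD, PPARGC1A, PPARGC1B and EBF1), 8 matched an entry in all 6 comparison tables, out of 13896 genes. CEBPB and PPARGC1B matched no entry and were not analysed here.

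Total RNA of subcutaneous adipose tissue from primiparous Holstein cows was sequenced in 15 libraries, 3 in each of 5 groups. The first group was sampled 1 month before calving, when no experimental diet had been given. The other groups were fed a low energy (LE) or a high energy (HE) diet from 1 month before calving and were sampled 1 week or 16 weeks after calving. The study's methods place the biopsies in the dewlap, define its groups by severe or moderate negative energy balance (SNEB and MNEB), and state that the 3 sequenced cows per group were those with the most extreme energy balance. The labels give the diet, and the groups here follow the diet. The labels tie no library to a cow, so p-values measure the spread between 3 libraries per group and samples of the same cow at different times cannot be paired.

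In fat cells, PPARG and C/EBP alpha (CEBPA) switch on each other and the genes of lipid storage. C/EBP delta (CEBPD) and EBF1 act earlier, in cells that commit to the fat lineage. PPARs bind DNA as a pair with the retinoid X receptor alpha (RXRA). PPARA and PPARD are better known for genes of fatty acid oxidation, and PPARGC1A is a coactivator of nuclear receptors that drives mitochondrial genes.

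Exonic reads numbered 8.34 to 14.9 M in the 9 libraries taken before calving or on LE, and 2.03 to 7.57 M in the 6 HE libraries, so HE values are the less precise. Synthetic spike-in RNAs took 0.231 to 2.03% of exonic reads in the former and 3.58 to 23.3% in the latter. For fat cells, 6 of 7 markers had solved reads, and their summed normalised count was 41932 to 87376 in the 9 libraries and 9402 to 55695 in the HE libraries. For skeletal muscle (7 of 7 markers) the sums were 73 to 342 and 1172 to 4037, and for mast cells (2 of 3 markers) 1126 to 4298 and 243 to 447. Between the group before calving and LE week 1, fat cell sums were 45998 to 56645 against 71764 to 87376. Precursor and fibroblast sums (6 of 7 markers) were 186847 to 215224 against 60893 to 149620, while skeletal muscle and mast cell sums overlapped. The part of depth, spike-in share and tissue make-up in any difference that involves HE was not tested, nor that of tissue make-up in the other differences. Since this is bulk tissue, fewer cells of a type and less RNA per cell cannot be told apart. Libraries are called a, b and c within a group, from the largest to the smallest size factor, the scale by which counts were normalised.

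A gene was called when its adjusted p in limma was below 0.01 with the same sign in exonic counts and in whole gene counts, which add the intronic reads. By this rule no member was called in any of the 6 comparisons, where 7 members could be tested in both measures. At an unadjusted p below 0.05 there were 2, 2, 0, 1, 3 and 4 of 8 members in exonic counts, in the order of comparisons given next, beside 42.3, 14.5, 13.5, 7.17, 32.3 and 38.5% of all genes. In whole gene counts there were 2, 1, 1, 2, 2 and 4 of 7, beside 25.3, 10.6, 11.9, 6.53, 19.3 and 29.7%. The share of all genes called was 1.79% before calving versus HE week 1, 0.0378% before calving versus LE week 1, 0% for HE week 1 versus week 16, 0% for LE week 1 versus week 16, 0% for LE versus HE at week 1, and 3.66% for LE versus HE at week 16. Where no gene was called, 788, 476 and 1910 genes had an unadjusted p below 0.05 in both measures, in the same order. With exonic counts alone, PPARD was the only member called, before calving versus HE week 1 and for LE versus HE at week 16. That single measure called 16.5% and 10.4% of all genes in these comparisons. It called 0.494% of genes before calving versus LE week 1, 0% between the HE weeks, 0% between the LE weeks and 1.43% for LE versus HE at week 1, with no member among them. The comparisons share libraries, so they are not independent of each other.

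**Figure D1:**
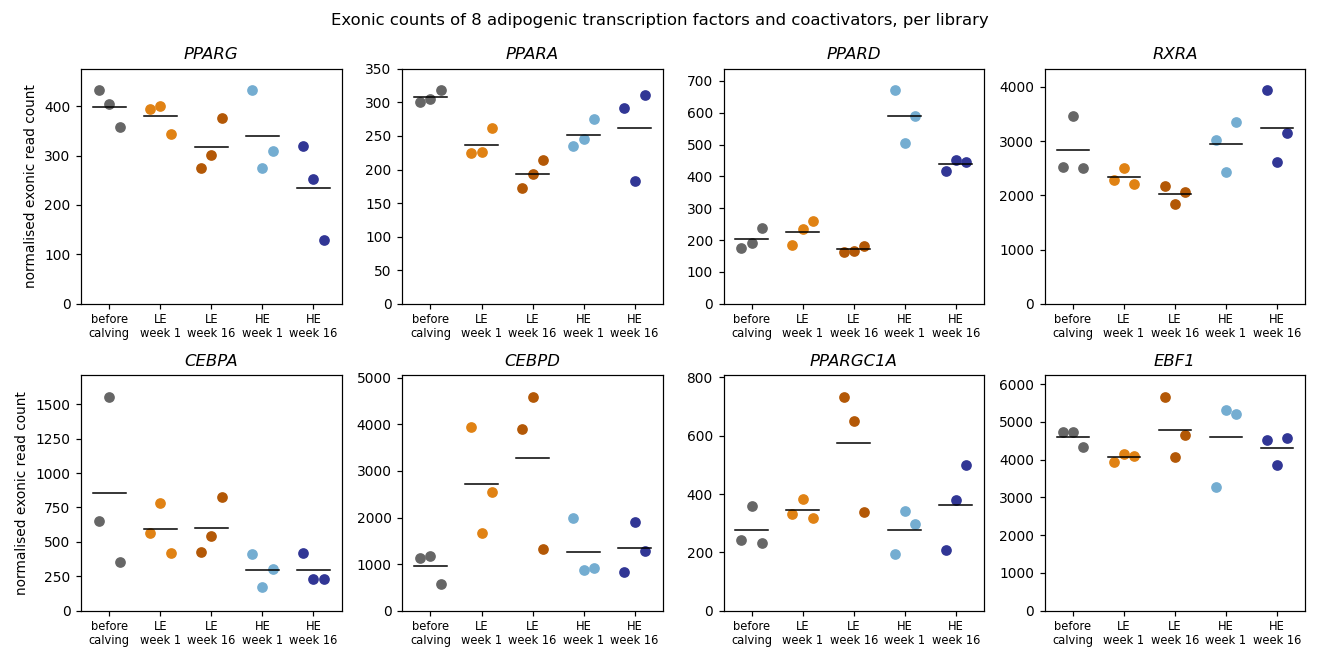
Normalised exonic read counts (vertical axes from 0, each gene on its own scale) of the 8 members in the 15 libraries, 3 points per group with a bar at the group mean. The 6 HE libraries of PPARD sit between 416 and 672, above the 9 others at 164 to 259, while the groups of PPARG that were compared overlap.

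PPARD is the PPAR found in most tissues and a regulator of fatty acid oxidation. Its normalised exonic count was 176, 190.5 and 239 before calving, 184, 235 and 259 on LE at week 1, and 164, 166 and 181 on LE at week 16. On HE it was 672, 505 and 588 at week 1 and 416, 452 and 447 at week 16. Each HE library therefore lay above every library of the other 3 groups. The share of all genes that separate without overlap was not counted, here or for the other members below. Before calving versus HE week 1 and for LE versus HE at weeks 1 and 16, 42.3, 32.3 and 38.5% of all genes had an unadjusted exonic p below 0.05.

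Before calving, exonic PPARD was lower than on HE at week 1 by 2.93-fold (log2 fold change -1.55, standard error 0.23, adjusted p = 0.000941). On LE it was lower than on HE by 2.54-fold at week 16 (-1.34, standard error 0.16, adjusted p = 0.00101). At week 1 the LE to HE difference was of similar size (-1.38, 95% interval -1.90 to -0.87) and missed the threshold with an adjusted p of 0.0101. With the deepest HE library of the week alone, the week 16 difference was -1.28 with an adjusted p of 0.0276, so that call was lost. In that fit HE is a single library, assumed to vary like the LE libraries, and the size of the difference was about the same. Over the 15 alternatives the adjusted p ran from 0.00022 to 0.0276. The call before calving versus HE week 1 held in all 15 alternatives (adjusted p 2.38e-05 to 0.00762), and the week 1 difference between the diets passed in 7 of 15 (0.000205 to 0.159).

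Whole gene counts of PPARD gave smaller differences, which is why the rule over both measures did not call it. They were 844, 1008 and 999.5 before calving and 2746, 1316 and 1343 on HE at week 1, a log2 fold change of -0.82 (95% interval -1.59 to -0.06, adjusted p = 0.168). For LE versus HE the whole gene difference was -0.43 at week 1 (adjusted p = 0.467) and -0.45 at week 16 (adjusted p = 0.128). Without HE week 1 library a, the difference at week 1 was -0.07 and that before calving versus HE week 1 was -0.43. The HE week 1 libraries did not overlap those before calving in this measure either, and HE library a stood far above b and c.

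The gap between the measures lies in the introns. Intronic reads made up 79.2 to 83.8% of PPARD whole gene reads in the 9 libraries taken before calving or on LE, and 48.6 to 74.9% in the HE libraries. Intronic reads tested on their own gave log2 fold changes of -0.79 before calving versus HE week 1 (95% interval -1.64 to 0.05), -0.39 for LE versus HE at week 1 and -0.29 at week 16 (-0.75 to 0.18). Over all genes the intronic share was 43.6 to 59.0% and 39.3 to 52.3% in the same sets of libraries. The HE libraries with the lowest share for PPARD were also the shallow ones within each week, and the part of library quality was not tested.

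**Figure D2:**
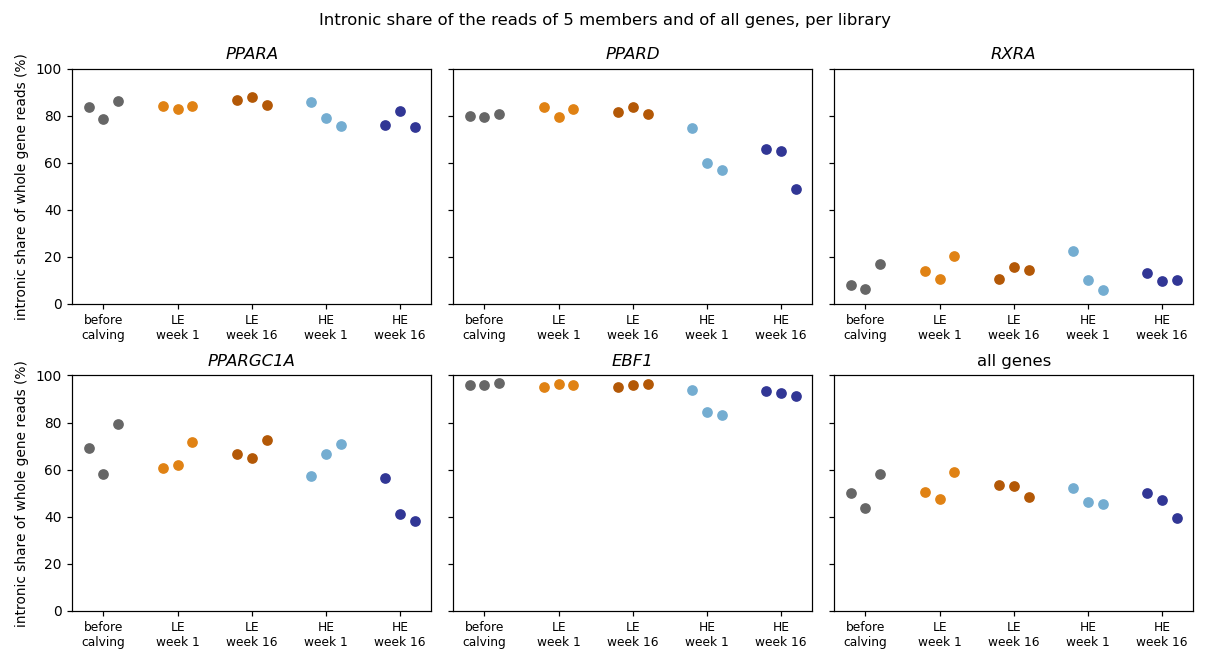
Intronic share of whole gene reads (%) in each library for the 5 members with introns and a whole gene count, and for all genes together. PPARD lies at 79.2% or more outside HE and 74.9% or less on HE, and EBF1 at 94.9% or more and 93.7% or less.

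PPARG is the receptor that fat cell formation depends on. Its exonic count was 432, 404 and 357 before calving, 394, 400.6 and 343 on LE at week 1, and 274, 301 and 375 on LE at week 16. On HE it was 433, 276 and 309 at week 1 and 319, 252 and 130.0 at week 16. All groups that were compared overlapped, and the lowest value, in HE week 16 library c, rests on 48 reads.

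No PPARG difference passed the test. Before calving versus LE week 1 the log2 fold change was 0.07 (95% interval -0.30 to 0.45, adjusted p = 0.881). Before calving versus HE week 1 it was 0.21 (-0.33 to 0.75). Of the 6 comparisons of 2 groups, the widest interval was that for HE week 1 versus week 16, which ran from -0.24 to 1.36 around 0.56 (adjusted p = 0.51).

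PPARG has no usable whole gene value, since that count is 0 in all 15 libraries. The same held for 104 genes in all, which had a whole gene count of 0 beside a mean exonic count of at least 10. In the counting mode of the study's methods, reads on bases that belong to more than a single entry go to none of them. Whether that also removed part of the exonic reads of PPARG was not tested, so its exonic count may cover part of the transcript.

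PPARA, the receptor best known from fatty acid oxidation in liver, had its highest mean before calving. In exonic counts it measured 300.4, 305 and 318 before calving, 225, 226 and 261 on LE at week 1, 173, 194 and 214 on LE at week 16, 235, 246 and 276 on HE at week 1, and 292, 182 and 311 on HE at week 16. The 3 libraries before calving lay above all 9 libraries of the groups at week 1 and of LE at week 16, and overlapped HE week 16. The log2 fold change before calving versus LE week 1 was 0.38 (95% interval 0.01 to 0.75), which did not pass (adjusted p = 0.32), and versus HE week 1 it was 0.32 (-0.15 to 0.79, adjusted p = 0.274). Whole gene counts gave 0.28 and 0.41, also without a call, and 75.0 to 87.9% of whole gene reads were intronic.

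RXRA, the shared partner of the PPARs, varied least between libraries on LE. Its exonic count was 2522, 3470.4 and 2504 before calving, 2282, 2495 and 2209 on LE at week 1, 2177, 1837 and 2064 on LE at week 16, 3024, 2432 and 3356 on HE at week 1, and 3941, 2614 and 3147 on HE at week 16. At week 16 each LE library lay below each HE library. That difference was -0.63 in exonic counts (95% interval -1.06 to -0.19, adjusted p = 0.0435) and -0.83 in whole gene counts (-1.25 to -0.42, adjusted p = 0.0213). RXRA thus missed the threshold of 0.01. Of the 7 members tested in both measures, it was the only member called at an adjusted p below 0.05 in both. The number of all genes called at 0.05 in this comparison is given below, with the number tested. At week 1 the LE to HE difference of RXRA was -0.30 (-0.75 to 0.16).

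**Figure D3:**
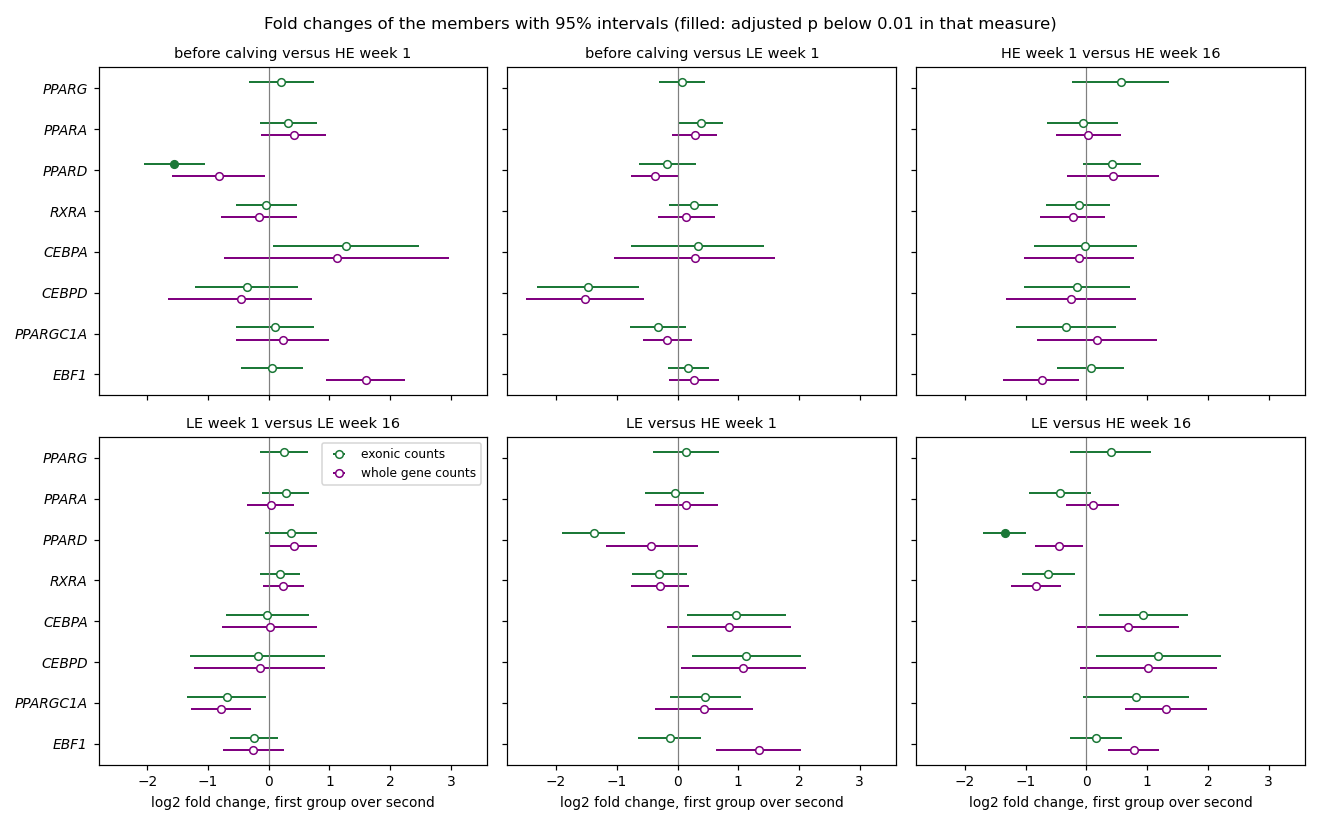
Log2 fold changes, first group over second, with 95% intervals for the 8 members in the 6 comparisons, from exonic counts (green) and whole gene counts (purple; PPARG has none). The filled points are PPARD in exonic counts before calving versus HE week 1 (-1.55) and for LE versus HE at week 16 (-1.34); EBF1 is the member with the largest gap between the measures.

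CEBPA, the partner of PPARG in keeping fat cells mature, varied widely between libraries of a group. Exonic counts were 655, 1554 and 354 before calving, 568, 784 and 422 on LE at week 1, 424, 544 and 828 on LE at week 16, 414, 173 and 302 on HE at week 1, and 418, 231 and 228 on HE at week 16. On LE it lay above HE, narrowly without overlap at both weeks, by log2 fold changes of 0.96 at week 1 (95% interval 0.15 to 1.78, adjusted p = 0.101) and 0.93 at week 16 (0.20 to 1.67, adjusted p = 0.0648), neither past the threshold. Before calving versus HE week 1 it was 1.28 (0.08 to 2.48, adjusted p = 0.0978), and this value was 0.72 without library b taken before calving and 1.80 without library c. Practically all reads of CEBPA and CEBPD were exonic, so whole gene counts repeat the same reads under other size factors and add no second readout for them. Under those size factors LE and HE overlapped for CEBPA at both weeks, and its differences were 0.85 (adjusted p = 0.329) and 0.69 (adjusted p = 0.249).

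CEBPD, an early factor that also responds to glucocorticoids and inflammation, had a higher mean on LE after calving than in the other groups. Exonic counts were 1127, 1173 and 575 before calving, 3946, 1664 and 2544 on LE at week 1, 3890.0, 4590.0 and 1327 on LE at week 16, 1998, 870.1 and 908 on HE at week 1, and 840, 1894 and 1278 on HE at week 16. All 3 LE week 1 libraries lay above those before calving. The log2 fold change before calving versus LE week 1 was -1.48 (95% interval -2.32 to -0.64) with an adjusted p of 0.0948. LE versus HE gave 1.13 at week 1 (adjusted p = 0.0863) and 1.18 at week 16 (adjusted p = 0.0888), with overlap between the groups at both weeks. With sample quality weights the week 1 difference was 1.65 (adjusted p = 0.0084) in exonic and 1.79 (adjusted p = 0.00453) in whole gene counts, the only alternative run in which a member was called in both measures at 0.01. Over the 15 alternatives the adjusted p ran from 0.0084 to 0.715 in exonic and from 0.00453 to 0.823 in whole gene counts. The number of all genes called with sample quality weights is given below, with the number tested.

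PPARGC1A, the coactivator of mitochondrial genes, had its highest mean on LE at week 16. Its exonic count was 243, 357 and 234 before calving, 332, 383 and 319 on LE at week 1, 733, 652 and 338 on LE at week 16, 194, 340.5 and 298 on HE at week 1, and 206, 380.4 and 501 on HE at week 16. Library c of LE week 16 fell among the libraries of LE week 1, while a and b stood above them. In whole gene counts LE at week 16 was 1995, 1827 and 1222 against 482, 709.7 and 1012 on HE, without overlap. That difference was 1.31 (95% interval 0.64 to 1.99) with an adjusted p of 0.0236, and from intronic reads alone it was 1.62 (1.02 to 2.22, adjusted p = 0.0167). Exonic counts gave 0.81 (-0.06 to 1.68, adjusted p = 0.154), which became 0.33 without HE week 16 library a and 1.13 without LE week 16 library c. From week 1 to week 16 on LE the log2 fold change, week 1 over week 16, was -0.69 in exonic and -0.78 in whole gene counts (adjusted p = 0.683 and 0.726).

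EBF1, a factor of fat cell precursors and of B cells, differed from PPARD in its measures. Its widest differences lay in whole gene counts, where most of its reads were intronic, and not in exonic counts. Its exonic count was 4737, 4743 and 4338 before calving, 3937, 4155 and 4093 on LE at week 1, 5662, 4062 and 4655 on LE at week 16, 3271, 5315 and 5220.3 on HE at week 1, and 4508, 3853 and 4577 on HE at week 16. The exonic log2 fold change was 0.05 before calving versus HE week 1 (95% interval -0.46 to 0.56), and it changed sign with library totals (-0.13) or sample quality weights (-0.09).

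Whole gene counts of EBF1 were 110884, 125474 and 105180.0 before calving, 77411, 114018 and 94524 on LE at week 1 and 103975, 95048 and 133617 on LE at week 16. On HE they were 53468, 36323 and 30887 at week 1 and 69933, 58242 and 65144 at week 16. No HE library reached the lowest value of the other groups. The log2 fold change was 1.60 before calving versus HE week 1 (95% interval 0.95 to 2.24, adjusted p = 0.0173), 1.34 for LE versus HE at week 1 (adjusted p = 0.0822) and 0.78 at week 16 (standard error 0.19, adjusted p = 0.0297). None passed 0.01 in the main setting. The second passed in 3 of 15 other settings (adjusted p 0.002 to 0.376) and the first in 4 of 15, 1 of them leaving out HE week 1 library a (1.82, adjusted p = 0.00513, within a range of 0.000369 to 0.107 over all 15). Intronic reads made up 94.9 to 96.6% of EBF1 reads outside HE and 83.4 to 93.7% on HE. Tested on their own, under their own size factors, these reads gave smaller log2 fold changes. They were 1.46 before calving versus HE week 1 (95% interval 0.89 to 2.04, adjusted p = 0.0748), 1.17 for LE versus HE at week 1 (adjusted p = 0.317) and 0.53 at week 16 (adjusted p = 0.168).

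The change from week 1 to week 16 was compared between the diets in a single fit over LE and HE. No member and 0% of all genes were called, and the smallest adjusted p of a member was 0.989. At an unadjusted p below 0.05 there were 509 genes in exonic and 540 in whole gene counts. The largest member difference was in PPARGC1A whole gene counts, -0.92 (standard error 0.49). Within a diet, HE week 1 versus week 16 gave 1335 genes and LE week 1 versus week 16 gave 762 genes with an unadjusted exonic p below 0.05, beside 0 past the adjusted threshold.

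Genes that the members act with or on were taken from 4 lists. Of 32 targets of PPARG and C/EBP alpha in fat cells, 30 could be tested. Before calving versus HE week 1, 16 were higher and 1 lower by the rule over both measures, against 1.79% of all genes called, in a list that was chosen with earlier results of these data known, and the median exonic log2 fold change was 2.24 against 0.05 over all genes. With the deepest HE library alone this count was 1, and it was 1 without any single library taken before calving, 12 without HE library a, 2 without b and 5 without c. The same list gave 3 higher before calving than on LE at week 1, beside 0.0378% of all genes (median 0.97 against -0.03), 1 of 30 higher on LE than HE at week 16, beside 3.66% of all genes, and none in the other comparisons. Between the HE weeks, between the LE weeks and for LE versus HE at week 1, 5, 8 and 14 of the 30 had an unadjusted exonic p below 0.05, beside 13.5, 7.17 and 32.3% of all genes. The list median in these comparisons was -0.04 against -0.01 over all genes, 0.23 against -0.01 and 1.02 against 0.07. For LE versus HE at week 16 it was 0.46 against 0.03.

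**Figure D4:**
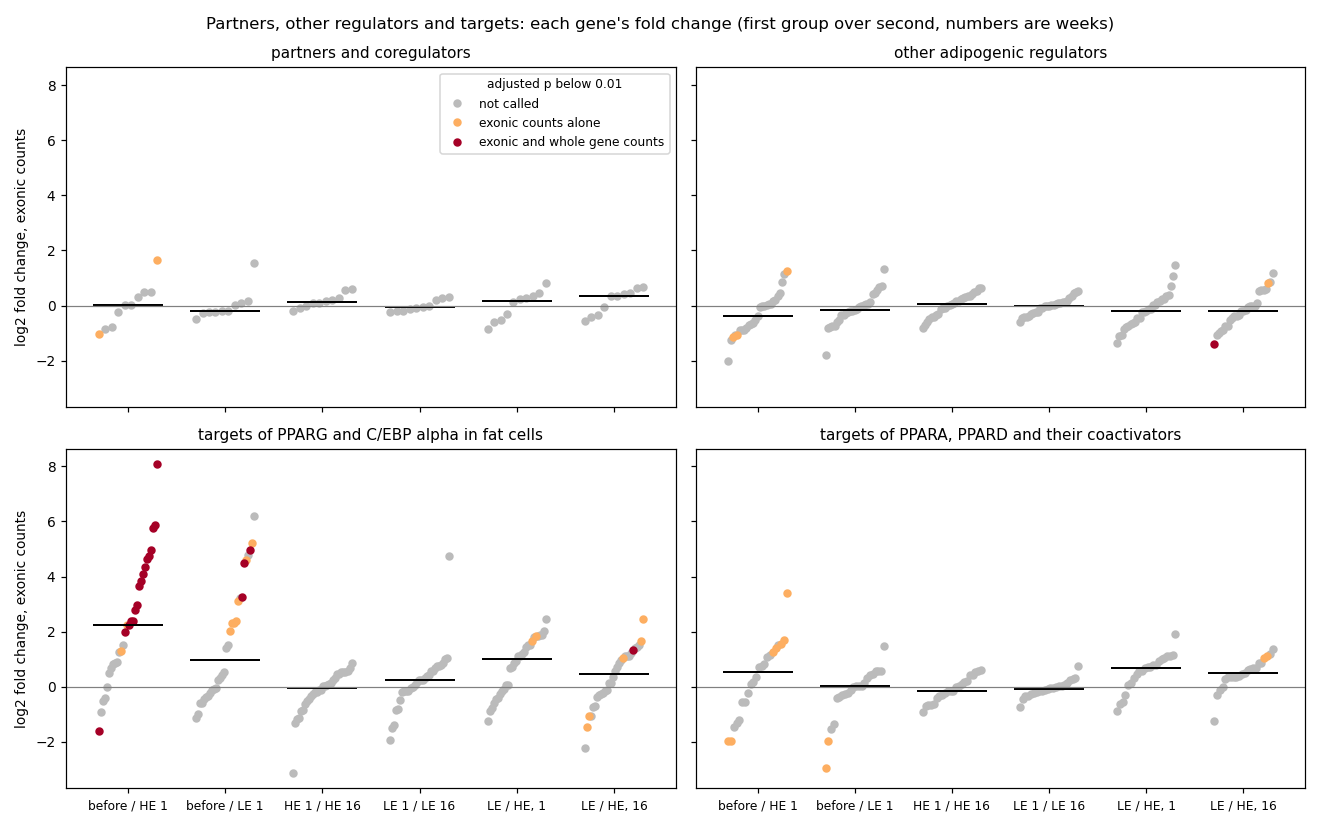
Exonic log2 fold changes (first group over second) of the genes of 4 lists in the 6 comparisons, ordered by size, with a bar at the list median; red points were called in both measures and orange points in exonic counts alone. Targets of PPARG and C/EBP alpha before calving versus HE week 1 stand out with a median of 2.24, while partners and coregulators have a median of 0.02.

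Of the targets called higher before calving than on HE at week 1, those with the largest changes were SCD, DGAT2 and THRSP. SCD, the desaturase of fatty acids, had 212809 to 249868 normalised exonic counts before calving, 648 to 17387 on LE at week 1 and 706 to 1086 on HE at week 1. Its log2 fold change before calving versus HE week 1 was 8.08 (standard error 0.23, adjusted p = 5.77e-08). DGAT2, which completes triglycerides, followed with 5.87, and THRSP, a lipogenic nuclear protein, with 5.77. DGAT1, the other enzyme of that last step, moved the opposite way, from 359 to 494 before calving to 1130 to 1374 on HE at week 1 (-1.59, adjusted p = 0.000608). This call was lost when any 1 library of the 2 groups was left out. Without any single library taken before calving, 1 target was called higher, so at most 1 of SCD, DGAT2 and THRSP kept its call there.

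Versus LE week 1, the 3 called targets were FASN, the fatty acid synthase (4.98, standard error 0.43, adjusted p = 0.00388), GPAM, the first enzyme of glycerolipid synthesis (4.48), and CIDEA, a lipid droplet protein (3.26). These calls were lost without any single library of the 2 groups except LE week 1 library b, without which 9 targets were called. For LE versus HE at week 16 the called target, a share no larger than that of all genes, was CAT, the peroxisomal catalase, with 5581 to 6509 on LE and 1850 to 3257 on HE (1.33, standard error 0.25, adjusted p = 0.00645). Without any single library of these groups, 0 targets were called. In the comparisons of the group before calving with HE and with LE at week 1, the 95% intervals of exonic PPARG, given above, ended at 0.75 and 0.45, and those of exonic RXRA ran from -0.54 to 0.46 and from -0.14 to 0.67. Exonic CEBPA differed without passing the threshold, by 1.28 (0.08 to 2.48) and 0.33 (-0.76 to 1.42). The second value changed sign, to -0.22, without library b taken before calving. Whether the RNA of these factors relates to that of the targets was not tested, and the exonic count of PPARG may cover part of its transcript.

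Of 26 targets of PPARA, PPARD and their coactivators, 22 were tested and none was called in both measures in any comparison, while 16, 9, 3, 3, 12 and 11 of the 22 had an unadjusted exonic p below 0.05 in the order of comparisons given above, beside the 42.3, 14.5, 13.5, 7.17, 32.3 and 38.5% of all genes. In exonic counts 7 were called before calving versus HE week 1, beside 16.5% of all genes, 5 of them higher before calving (median of the list 0.54). There were 2 before calving versus LE week 1, beside 0.494% of all genes, both lower before calving (median 0.01): CPT1A, which admits fatty acids to mitochondria (-1.96), and PDK4, which restrains glucose oxidation (-2.96), both named after their values were seen. For LE versus HE at week 16 there were 2, both higher on LE (median 0.50), beside 10.4% of all genes. Of 16 partners and coregulators, 10 were tested and none was called in both measures. At an unadjusted exonic p below 0.05 there were 6, 1, 2, 0, 3 and 5 of the 10 in the same order, beside the same shares of all genes. In exonic counts RXRG was called higher (1.67) and CREBBP lower (-1.05) before calving than on HE at week 1, beside 16.5% of all genes; these genes too were named after their values were seen. Of 37 other adipogenic regulators, 27 were tested, and the single gene called in both measures was NR2F2, a nuclear receptor of precursors and vessels, with 416 to 569 on LE and 1162 to 1511 on HE at week 16 (-1.41, standard error 0.18, adjusted p = 0.00133). This is 1 of 27 beside 3.66% of all genes, and the call was lost without any single library of these groups other than HE library b. At an unadjusted exonic p below 0.05 in this list there were 12, 12, 3, 2, 9 and 16 of the 27 in the same order of comparisons, beside 42.3, 14.5, 13.5, 7.17, 32.3 and 38.5% of all genes. In exonic counts alone 3 of this list were called before calving versus HE week 1 and 2 for LE versus HE at week 16, beside 16.5% and 10.4% of all genes.

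All fold changes are relative to the size factors of the tables. Scaling to library totals instead shifted the median exonic log2 fold change by -0.19 before calving versus HE week 1 and by -0.14 before calving versus LE week 1.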

How the data were processed

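Per the authors' methods and the submitters' processing notes, reads were demultiplexed with bcl2fastq 2.15.0, trimmed with Cutadapt 1.3, aligned with TopHat2 to bosTau8 and counted with htseq-count, once on exons and once on entire genes, over 13896 genes and 92 spike-ins. The authors deposited 6 tables, 1 per comparison. The signal used from each is the mean over 6 libraries of counts that the authors divided by size factors, for exons and for entire genes (the latter is the other unit recorded for the deposited values). The fold changes, errors, statistics and p-values of the authors' own comparisons in these tables were not used. No column belonged to other samples (0 columns).

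A gene's 6 means, given to 15 digits, fix its whole reads in every library once the size factors are known. Size factors were read from genes with a single read, and the reads were then solved by lattice reduction: 99.95% of 13988 entries for exons (largest relative residual 5e-15) and 99.94% for entire genes. On simulated data 2000 and 1998 of 2000 entries were solved, none wrongly. Libraries could be assigned to groups but not to single samples. Counts printed per library were divided by median-of-ratios size factors over the 15 libraries.

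Each comparison was fitted with limma 3.58.1 (voom, empirical Bayes, Benjamini-Hochberg over all genes tested, mean count of at least 10, size factors of the table) in R 4.3.3, on exonic and whole gene counts. On simulated exonic counts with 200 changed genes, 82% of these were found before calving versus HE week 1, with 3 false calls. For HE week 1 versus week 16, 73.5% were found, with 0 false calls. These shares hold for exonic counts alone. The share that the rule over both measures would find was not tested, nor was the share for fold changes of the size measured in the members. Other computations used Python 3.11.15, numpy 2.4.6, pandas 2.3.3 and scipy 1.17.1. The named genes were the members, up to 3 called genes per list, direction and comparison with the largest change, and the 5 genes most like PPARG and CEBPA; a result under this rule is not reported here. Members and lists were chosen with earlier results of these data known. Libraries of 1 group differed far beyond sampling noise (chi-square over degrees of freedom of at least 16.3), so none repeats another library of its group. Pairs of libraries from different groups were not compared in this way. No sequences are printed. Alternatives were exonic or whole gene counts alone, a threshold of 0.05, other scalings and filters, limma with a trend on log2(CPM + 0.5) or log2(CPM + 2), sample quality weights, a fit over 5 groups and leaving out libraries.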

Additional observations from a re-analysis of the deposited data

How the results depend on the processing

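No paired analysis was possible because the tables name no library and the labels tie no library to a cow. No member was called in any comparison in the main setting; 1 (PPARD) was with exonic counts alone before calving versus HE week 1 and for LE versus HE at week 16, 1 (RXRA) with an adjusted p below 0.05 for LE versus HE at week 16, and 1 (CEBPD) with sample quality weights for LE versus HE at week 1. Leaving out any library gave 0 members in each comparison.

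Counts over all genes moved more. Before calving versus HE week 1 (186), they were 1739 with exonic counts alone, 1070 at 0.05, 1066 in 1 fit over 5 groups, 314 with library totals, 67 without a filter, 1595 with sample quality weights, 1 with the deepest HE library alone (chosen after seeing the data), and 1 to 211 without 1 library (over 15 only without HE week 1 library a). Before calving versus LE week 1 (4), they were 53, 67, 24, 0, 296 for exonic counts, 0.05, 1 fit, library totals and weights, 9 and 7 with a trend on log2(CPM + 0.5) and log2(CPM + 2), and 0 to 92 without 1 library (92 without LE week 1 library b, otherwise 0). For LE versus HE at week 1 (0 of 10365 tested in both measures), they were 150, 52, 311 and 799 for exonic counts, 0.05, 1 fit and weights, and 0 to 460 without 1 library (460 without HE week 1 library a, otherwise 0). At week 16 (372 of 10157 tested in both measures), they were 1065 with exonic counts, 1343 at 0.05 and 34 to 106 without 1 library. The cause was not tested, except that leaving out libraries reduces the samples.

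The members and comparisons with an unadjusted p below 0.05 in either measure were followed in both measures. Fold changes outside this set also changed sign in places, such as exonic RXRA before calving versus HE week 1 in 4 of 15 alternatives. Within the set, 506 alternative values kept direction and side of the threshold, 17 newly passed it, 1 no longer did and 6 reversed, all of them exonic EBF1. These were -0.16 without HE week 1 library a (up to 0.16 without 1 library), -0.13 with library totals and -0.09 with weights before calving versus HE week 1, -0.04 and -0.00 without HE week 1 library b or c (up to 0.27 without 1 library) for HE week 1 versus week 16, and 0.31 with the deepest HE library alone for LE versus HE at week 1. Depth limits the HE groups most: 48 reads are the fewest behind any exonic member value.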

Other observations

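Macrophage markers (5 of 6) summed to 4975 to 7103 before calving, 7586 to 13710 on LE, 2010 to 6983 on HE at week 1 and 1971 to 2269 on HE at week 16, and 4 of the 5 were called in exonic counts as higher on LE than HE at week 16, beside 10.4% of all genes. Precursor and fibroblast markers (6 of 7) summed to 60893 to 312825 outside HE and to 33358 to 65958 on HE. In exonic counts 5 of these 6, 3 of 6 fat cell markers and 2 of 2 mast cell markers were called higher before calving than on HE at week 1. In that comparison 1 of 5 endothelium and 1 of 3 skeletal muscle markers were called lower, and 16.5% of all genes were called.

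As a description over the 15 libraries, which share scaling and depth differences, genes whose log2 exonic counts were among the most like PPARG of 8019 genes were SLC46A3 (Pearson r 0.868), XRCC6 (0.855), DPAGT1 (0.847) and ALDH6A1 (0.84). For CEBPA they were IGF2R (0.917), KIAA2013 (0.916), SCAMP3 (0.895), GLRX2 (0.894) and TEX264 (0.892). None of them belongs to the lists of targets.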
